A study of Mus musculus with 3 samples.

Results

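The Myb and Myc family transcription factors described here were 7 genes, Myb, Mybl2, Myc, Mycn, Mxd3, Mxd4 and Max, taken by their symbols from the gene lists of 3 single-cell RNA libraries of mouse thymocytes. The first and second runs listed 28692 genes each and the third run 32285. The members were chosen by family, with no threshold on their values, and were followed in the cells that had 500 to 5000 detected genes and at most 7% mitochondrial counts, which were 5516 of 5527, 8852 of 8887 and 7511 of 8869 barcodes of the successive runs. Each library came from 4 pooled thymi of C57BL/6 mice labelled as 6 weeks old and was depleted of cells expressing CD4 or CD8 before sorting. The first run held total double-negative (DN) thymocytes, which lack CD4 and CD8, together with TCRγδ+ thymocytes. The second run held DN1 and DN2 thymocytes, which carry CD44, sorted without TCRγδ+ cells. The third run held DN1 plus DN2, DN3 and TCRγδ+ thymocytes that were sorted apart and then mixed. All sorts left out cells with B220, CD11b, CD11c, NK1.1 or TCRβ on the surface. Each sort was made once, so the runs were not replicates of each other, and the sort, the pool of mice and the library cannot be told apart. The first and second runs shared 72 cell barcodes, the first and the third run 1, and the second and the third run 0.

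Myb binds DNA as a monomer and is needed at several steps of T cell development, while Mybl2 (B-Myb) is a cell cycle gene that joins the MuvB core, a protein complex, to switch on genes of late S phase and G2/M. Myc and Mycn drive ribosome making, metabolism and growth when paired with Max, which binds the E-box, a short DNA element with the letters CACGTG. Mxd3 and Mxd4 pair with Max on the same elements and repress transcription there. In the thymus, Myc is best known for the growth of pre-T cells after the pre-TCR signal, and Mycn for early progenitors.

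Cells were placed in stage gates by single transcripts, since no annotation of cells was used here. ETP-like cells had Kit with Cd34 or Flt3, and neither Il2ra nor Ptcra. DN2a-like cells had Il2ra with Kit or Cpa3, with none of Rag1, Rag2 and Ptcra, DN2b-like cells had any of those as well, and DN3-like cells had Il2ra and Ptcra without Kit or Cpa3. DN4-like cells had Cd8a or Cd8b1 and none of Il2ra, Kit and Cpa3. Immature γδ cells had Trdc with Sox13, Etv5 or Blk, effector cells had at least a pair of the NK-receptor and cytotoxic genes Nkg7, Ccl5, Klrd1, Klrb1c and Klrk1, and type 17 cells had at least a pair of Il17re, Il23r, Il1r1 and Ccr6. The 3 runs, in order, held 363, 1422 and 796 DN2a-like cells, 214, 682 and 785 DN2b-like cells, 1053, 742 and 1186 DN3-like cells and 275, 511 and 912 immature γδ cells. The effector gate held 36, 2603 and 1518 cells, the type 17 gate 1, 266 and 400, and the DN4-like gate 1137, 31 and 37. The ETP-like gate held 1, 23 and 23 cells, and 2385, 2319 and 1199 cells fitted no gate.

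Genes that the gates did not use were compared with the names of the gates. Notch3, a target of Notch in pre-T cells, stood at 19.3, 14.8 and 21.5 CPM (counts scaled to a common total of all genes) in the DN2a-like cells of the 3 runs in order and at 48.2, 43.0 and 110.7 CPM in DN3-like cells. Of the other genes set aside for this check, Cd3e and Lef1 were also higher in DN3-like cells of each run. Bcl11b and Cd3g were higher there in the second and the third run only. In the first run Bcl11b was at 538.5 CPM in DN2a-like and 479.4 CPM in DN3-like cells, and Cd3g at 1802 and 1764 CPM. Hhex, a progenitor gene, was at 161.7 and 170.8 CPM in the ETP-like cells of the second and the third run and at no more than 5.70 CPM in DN3-like cells. Of the genes set aside to check the type 17 gate, Icos, a costimulatory receptor, was at 606.6 and 953.1 CPM there and at 5.89 and 4.77 CPM in DN3-like cells of the same runs. Maf, a transcription factor of type 17 cells, was at 245.2 and 341.0 CPM there, but also at 203.1 and 301.5 CPM in immature γδ cells. Id3, set aside to check the immature γδ gate, was at 304.2, 216.3 and 128.5 CPM there and at 60.7, 36.6 and 15.2 CPM in DN2a-like cells. Tcrg-C1, set aside for the same check, went the other way, at 642.5, 1445 and 496.5 CPM against 2028, 2319 and 838.1 CPM. Tcrg-C4 was also lower than in DN2a-like cells in the first and the second run, but not in the third. The effector gate was mixed. It held Gzmb at 347.8 and 243.4 CPM, but also Il2ra at 144.8 and 138.8 CPM and Cpa3 at 178.1 and 110.9 CPM, so a stricter effector gate, without Nkg7 and with no Il2ra UMI, was added after these values were seen. It was part of a set of revised gates, which also left Lyz2 out of the gate for other lineages. Cells set free by either change could enter a later gate. Values given with the stricter effector gate therefore also use changed DN3-like, immature γδ and type 17 gates. The second run had been sorted against TCRγδ, yet 511 of its cells met the immature γδ gate, with Cpa3 at 397.4 CPM. The sort of this run took DN1 and DN2 cells, yet 742 of its cells met the DN3-like gate. These cells were kept as DN3-like in all comparisons, and whether they were DN3 cells was not tested. Of 6 markers of B and myeloid cells, 5 were higher in ETP-like cells than in DN2a-like and DN3-like cells of the same run, among them Cd74, an antigen presentation gene, at 506.5 and 316.3 CPM, and Tyrobp, a myeloid adaptor, at 355.6 and 648.3 CPM, while Igkc was at 43.1 and 31.6 CPM. Lyz2, a myeloid gene outside these 6, was at 16.2 and 19.0 CPM in ETP-like cells and at 24.6 and 16.1 CPM in DN2a-like cells. The part of such cells in the ETP-like values was not tested.

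A cell was called resting when its S phase genes (a list of 43) and its G2/M genes (a list of 54) each took under 0.2% of its unique molecular identifiers (UMIs), and cycling otherwise. By this cut 10.2%, 30.7% and 24.2% of the cells of the 3 runs in order were resting. The score is continuous: 13.4%, 25.6% and 31.9% of cells lay within 0.05 percentage points of the cut, so cells with one of the shares at 0.4% or more are also given, as strongly S or strongly G2/M. Resting cells were shallower, with a median of 2930, 4144 and 7452 UMIs in the DN3-like gate against 11151, 9940 and 16215 in strongly G2/M cells. All levels below are therefore UMIs of the gene in CPM of all UMIs of the same gate, with exact 95% Poisson intervals that cover counting error only. The differences come from edgeR's quasi-likelihood test on UMIs summed per run, gate and status, with the run as a block, so p-values measure the spread between gates of these 3 libraries. These p-values were adjusted by the Benjamini-Hochberg method over all genes tested.

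The promoters of the 4 members whose level differed between cycling and resting cells, Mybl2, Mxd3, Mycn and Mxd4, show which known control letters lie at their starts. RefSeq sequences on GRCm38.p6, here the 250 bases before the RefSeq start, were matched by symbol for 6 of the 7 members, all but Myc. Capitals mark E2F letters (TTTGGCGC, TTTCGCGC, TTTCCCGC or GGCGGGA), the E-box CACGTG and the cell cycle homology letters TTTGAA, on either strand. The windows are chr2:163054385-163054634 on the + strand for Mybl2, chr13:55329732-55329981 on the - strand for Mxd3, chr12:12941837-12942086 on the - strand for Mycn and chr5:34187711-34187960 on the - strand for Mxd4.
Mybl2: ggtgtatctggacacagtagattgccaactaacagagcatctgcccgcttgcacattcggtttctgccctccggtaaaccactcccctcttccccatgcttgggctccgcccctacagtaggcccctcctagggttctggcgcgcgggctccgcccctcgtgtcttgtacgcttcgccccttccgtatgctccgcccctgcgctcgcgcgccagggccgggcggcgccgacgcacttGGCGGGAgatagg
Mxd3: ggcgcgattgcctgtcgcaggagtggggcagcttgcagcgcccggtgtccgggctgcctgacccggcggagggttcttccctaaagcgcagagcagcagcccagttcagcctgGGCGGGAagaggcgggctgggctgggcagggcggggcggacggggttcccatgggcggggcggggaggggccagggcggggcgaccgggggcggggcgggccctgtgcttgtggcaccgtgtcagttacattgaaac
Mycn: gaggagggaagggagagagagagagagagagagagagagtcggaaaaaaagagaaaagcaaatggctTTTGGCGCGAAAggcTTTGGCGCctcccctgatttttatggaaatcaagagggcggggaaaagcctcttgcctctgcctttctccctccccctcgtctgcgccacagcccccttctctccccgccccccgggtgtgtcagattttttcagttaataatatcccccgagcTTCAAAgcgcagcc
Mxd4: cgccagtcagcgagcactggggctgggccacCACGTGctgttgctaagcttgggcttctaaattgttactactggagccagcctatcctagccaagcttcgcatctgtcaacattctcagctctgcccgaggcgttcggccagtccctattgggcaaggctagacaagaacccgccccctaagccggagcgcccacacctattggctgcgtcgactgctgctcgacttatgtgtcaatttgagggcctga

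Mybl2 held GGCGGGA with its first base at -13 from the start, and Mxd3 held it at -137. Mycn held TTTGGCGC at -183 and at -168, the first of which overlapped a GCGCGAAA at -179, and TTCAAA at -14. Mxd4 held the E-box at -219, Max held an E-box at -3 and Myb held GGCGGGA at -9. Of 32851 promoter windows of 300 bases, 12.4% held any of the E2F letters (11.34% GGCGGGA, 0.51% TTTGGCGC), 7.15% the E-box and 17.89% TTTGAA. The GGCGGGA letters were added to the search after the sequences were seen. A match is a description of these letters and not of binding.

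Mybl2 and Mxd3 were near the detection limit in resting cells and far higher in cycling cells of every run. The DN2a-like, DN2b-like and DN3-like cells of a run, all with Il2ra, were pooled for these levels. The mix of these gates differed between states. In the third run DN3-like cells were 149 of 223 resting cells but 176 of 622 strongly G2/M cells. Ratios of pooled levels, here and below, therefore also carry differences between gates. Mybl2 (GRCm38 chromosome 2, 163054687 to 163084688, + strand) was counted 2, 2 and 6 times in the 180, 239 and 223 resting cells of the 3 runs in order, which is 3.27, 1.80 and 3.26 CPM. In strongly S cells it stood at 71.6, 60.0 and 45.1 CPM. These levels were 21.9-fold (95% interval 6.0 to 182), 33.3-fold (9.15 to 276) and 13.9-fold (6.31 to 38.0) those of resting cells of the same run. The lowest S phase level was above the highest resting level, and the intervals did not meet in any run. Mxd3 (chromosome 13, 55325168 to 55329823, - strand) was counted 2 times in the resting cells of each run, at 3.27, 1.80 and 1.09 CPM, and stood at 92.8, 106.1 and 72.0 CPM in strongly G2/M cells. Its G2/M level was 28.4-fold (7.82 to 235), 58.8-fold (16.2 to 486) and 66.3-fold (18.3 to 549) the resting level. Again the intervals of resting and G2/M cells did not meet in any run. Mxd3 overlaps Prelid1, a gene on the other strand, over 105 bases, where their reads can be told apart only by strand.

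The test over the 3 Il2ra+ gates called 2615 of 10850 genes, or 24.1%, between cycling and resting cells, and 4 of the 7 members were among them. The log2 difference, cycling minus resting, was 3.97 ± 0.38 (SE) for Mybl2 (adjusted p = 4.7e-11, edgeR) and 4.65 ± 0.42 for Mxd3 (adjusted p = 1.0e-11). Both fitted values rest on few resting UMIs and so depend on the prior count. Mxd4 fell by 1.01 ± 0.13 (adjusted p = 1.2e-07) and Mycn fell by 0.95 ± 0.23 (adjusted p = 0.0018). Myc differed by -0.24 ± 0.11 (adjusted p = 0.13), Myb by -0.14 ± 0.09 (adjusted p = 0.31) and Max by 0.02 ± 0.10 (adjusted p = 0.97), which did not pass. The median difference of all genes tested was 0.06. The call of Mycn was lost without the second run, at -0.73 with an adjusted p of 0.16, and also with no run block (-0.91, adjusted p = 0.26), with sums of at least 50 cells, which left DN3-like cells alone (-0.85, adjusted p = 0.17), and in thinned DN2a-like and DN3-like cells (-0.76, adjusted p = 0.55). With 0.4% as the cut, Myb and Myc also passed, at -0.49 and -0.42, where the median of all genes was -0.17 and the calls were 2327 higher and 4416 lower, against 1909 and 706 with the cut of 0.2%. Myc was past the threshold in 6 more alternatives, among them DESeq2 at -0.34 (adjusted p = 0.025), and Myb in 3 more, among them the fit without the third run at -0.35 (adjusted p = 0.016).

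Mybl2 and Mxd3 peaked in different bins of the cycle. Strongly cycling Il2ra+ cells were divided by the share of G2/M genes in their summed S and G2/M score, a score that uses neither member. From the bin under 0.4 to the bin of 0.6 to 0.8, Mxd3 stood at 11.9 and 111.0 CPM in the first run, at 5.45 and 137.2 CPM in the second and at 1.93 and 76.5 CPM in the third. Mxd3, a repressor that pairs with Max, was thus high at the G2/M end in every run. Mybl2 was high earlier: its level peaked at 86.4 CPM in the bin of 0.4 to 0.5 in the first run and at 108.5 and 61.2 CPM in the bin of 0.5 to 0.6 in the others, and was at 29.9, 24.6 and 19.1 CPM in the last bin, from 0.8. The bin of 0.5 to 0.6 lies on the G2/M side of the score. Over all strongly G2/M cells Mybl2 stood at 53.15, 50.44 and 42.53 CPM, against 71.6, 60.0 and 45.1 CPM in strongly S cells. Mxd3 stood at 24.55, 12.57 and 7.715 CPM in strongly S cells. G2/M against S cells called 2173 of 10886 genes, or 20%, and 3 members. This test took all cells that were cycling by the cut of 0.2%, not the strongly cycling cells alone. A cell counted as S when its S share was at least its G2/M share, and as G2/M otherwise. Mxd3 was higher in G2/M by 2.48 ± 0.15 on the log2 scale (adjusted p = 2.5e-19, edgeR) and Mybl2 fell by 0.52 ± 0.12 (adjusted p = 9.8e-04). The Mybl2 call was lost with no run block (-0.499, adjusted p = 0.74, edgeR). Mxd4 was higher by 0.51 ± 0.12 (adjusted p = 0.0010), but this call did not hold: it turned to -0.39 with a core list of G2/M genes (adjusted p = 0.0015), was 0.21 with the cut of 0.4% (adjusted p = 0.16), and was 0.18 without the third run (adjusted p = 0.42). Myb and Myc differed by -0.19 and -0.20 (adjusted p = 0.13 and 0.077).

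**Figure D1:**
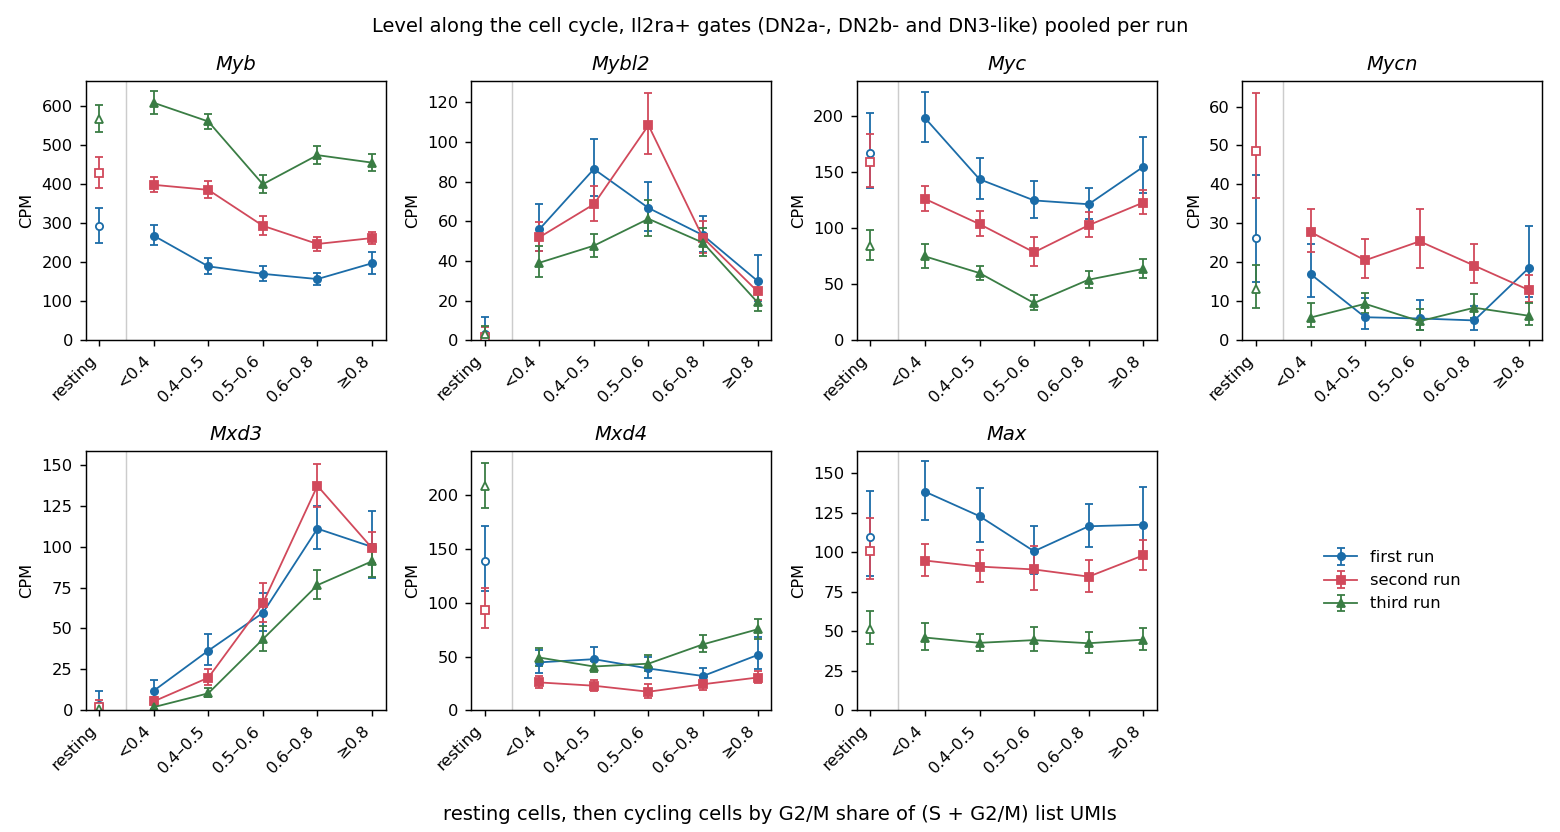
Levels of the 7 members in CPM, on axes from 0, in resting cells (open symbols) and in 5 bins of strongly cycling cells ordered by the G2/M share of the cycle score, with 1 colour per run for pooled Il2ra+ cells and exact 95% Poisson intervals as bars. Mybl2 is high from the S end to the middle bins and Mxd3 rises to between 76.5 and 137.2 CPM at 0.6 to 0.8, while Mxd4 lies at 93.7 to 208.4 CPM in resting cells and below the resting level of its run in every cycling bin.

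Mxd4, the other repressive partner of Max, ran opposite to Mxd3. It stood at 138.9, 93.7 and 208.4 CPM in resting Il2ra+ cells and at 47.3, 24.2 and 43.2 CPM in strongly S cells. The S level was 0.341 (0.26 to 0.449), 0.258 (0.201 to 0.332) and 0.207 (0.179 to 0.24) times the resting level. In strongly G2/M cells it was at 37.0, 25.99 and 61.0 CPM, and the interval of each of these 6 ratios lay below 1. In cells thinned to 2000 UMIs, which left out the shallower cells and were gated and scored anew, DN2b-like cells could not be fitted, and the Mxd4 difference was -1.22 in DN2a-like cells, against -1.22 before thinning, but without passing (adjusted p = 0.12), -0.04 in DN3-like cells (adjusted p = 0.99) and -0.63 over both (adjusted p = 0.15). Mxd4 (chromosome 5, 34173883 to 34187720, - strand) overlaps the antisense gene Gm42846 over 1001 bases, from which its reads can be told apart only by strand. Mycn, the N-Myc gene (chromosome 12, 12936093 to 12941914, - strand), was a low transcript. It stood at 26.2, 48.7 and 13.0 CPM in resting Il2ra+ cells, on 16, 54 and 24 UMIs, and at 7.81, 17.1 and 6.54 CPM in strongly G2/M cells. Its G2/M level was 0.299 (0.164 to 0.57), 0.351 (0.256 to 0.487) and 0.502 (0.311 to 0.837) times the resting level, lower in 3 of 3 runs.

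Myb, Myc and Max were well above the detection limit in resting and in cycling cells. Myb (chromosome 10, 21124935 to 21160984, - strand, opposite the antisense gene Gm26577 over 9281 bases) stood at 290.9, 427.3 and 565.4 CPM in resting Il2ra+ cells, at 226.0, 390.7 and 572.4 CPM in strongly S cells and at 167.5, 261.4 and 445.7 CPM in strongly G2/M cells. Its G2/M level was 0.576 (0.49 to 0.68), 0.612 (0.554 to 0.677) and 0.788 (0.737 to 0.844) times the resting level by counting error alone. Myc (chromosome 15, 61985391 to 61990374, + strand) stood at 166.7, 158.6 and 84.1 CPM in resting, 167.7, 114.3 and 64.2 CPM in strongly S and 129.0, 107.5 and 51.0 CPM in strongly G2/M cells. In these pooled cells Myc was lowest of the 3 states in G2/M cells of each run, at 0.774 (0.628 to 0.962), 0.678 (0.577 to 0.8) and 0.606 (0.506 to 0.73) times the resting level. In DN2a-like, DN2b-like and DN3-like cells of the third run it stood at 48.8, 76.0 and 97.2 CPM in resting cells. In strongly G2/M cells of these gates it stood at 43.2, 48.6 and 64.5 CPM. In DN2b-like cells of the second run Myc was lower in strongly S (107.7 CPM) than in strongly G2/M cells (113.6 CPM). Max (chromosome 12, 76937269 to 76962201, - strand), the shared partner, differed little: the ratios of strongly S or G2/M to resting cells ran from 0.846 to 1.19, and each of their 6 intervals held 1. The runs themselves differed, with Max at 109.5, 101.0 and 51.6 CPM in resting cells, in the opposite order to Myb, so ratios of levels were taken only within a run.

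Gate by gate, Mybl2 and Mxd3 were called higher in cycling cells in each of the 6 gates tested, although the calls in the effector and type 17 gates were each lost in at least 1 alternative. In DN2a-like cells 10.0% of genes and 3 members were called, in DN2b-like cells 7.32% and 3 members, and in DN3-like cells 15.0% and 3 members. In each of these 3 gates the members were Mybl2, Mxd3 and Mxd4. Mybl2 differed by 3.18 ± 0.55, 4.77 ± 0.90 and 3.97 ± 0.54, Mxd3 by 5.31 ± 0.85, 4.03 ± 0.77 and 4.62 ± 0.58 and Mxd4 by -1.22 ± 0.25, -0.92 ± 0.26 and -0.88 ± 0.17 in the 3 gates (log2, SE). The Mxd4 call in DN2b-like cells was lost without the second run (adjusted p = 0.059) and without the third run (adjusted p = 0.22). With no run block Mxd4 passed in none of these gates, at -1.185, -0.908 and -0.866 (adjusted p = 0.38, 0.62 and 0.60, edgeR). Whether the cycling difference itself changed from DN2a-like to DN3-like cells was tested for every gene, and edgeR called 0 of 10850 (0.0%), with 622 at an unadjusted p under 0.05, none of them a member, and DESeq2 called 0 as well. With the cut of 0.4%, 360 genes passed, and Mycn among them had a larger fall in DN3-like cells, by -1.48 (adjusted p = 0.0030).

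In immature γδ cells 26.2% of genes and 4 members were called between cycling and resting cells. Mybl2 differed by 3.22 ± 0.46, Mxd3 by 5.01 ± 0.56 and Mxd4 by -0.97 ± 0.18 on the log2 scale, and the fourth was Myc. The Mxd4 call was lost with no run block (-1.035, adjusted p = 0.31, edgeR) and in thinned cells (-0.528). Resting γδ cells held Myc at 72.7, 42.6 and 12.1 CPM in the runs in order, and strongly S cells held it at 94.5, 86.4 and 49.5 CPM. The intervals met in the first run (37.5 to 126.9 against 69.7 to 125.3 CPM), and were apart in the second (28.5 to 61.1 against 61.7 to 117.7) and in the third (7.66 to 18.1 against 39.4 to 61.4). The second run was sorted without TCRγδ+ cells, and whether its cells in this gate were γδ cells was not tested. Myc was higher in cycling γδ cells by 1.13 ± 0.23 (adjusted p = 2.8e-04, edgeR), but by 0.10 in thinned cells (adjusted p = 1.0) and by 0.93 with no run block (adjusted p = 0.55), neither of which passed. The difference from DN3-like cells, where cycling and resting Myc differed by -0.11 ± 0.16, was 1.23 ± 0.29 (adjusted p = 0.0097), in a test that called 2.29% of genes and no other member. Without the third run these were 0.70 (adjusted p = 0.070) and 0.77 (adjusted p = 0.40). In cells thinned to 2000 UMIs the difference from DN3-like cells was -0.001 (adjusted p = 1.0). The immature γδ gate also held Il2ra, at 62.9, 124.8 and 141.2 CPM in all its cells of the runs in order. Its resting cells held Il2ra at 121.1, 27.9 and 17.3 CPM, lower than in all cells in the second and the third run but not in the first. The part of cells with Il2ra in the Myc difference was not tested.

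In the effector gate 33.7% of genes and 5 members were called, with Mybl2 at 4.03 ± 0.40, Mxd3 at 3.66 ± 0.38, Myb at 1.65 ± 0.18, Mxd4 at -0.85 ± 0.16 and Max at -0.37 ± 0.12. The gate held cells with Il2ra, and with the stricter effector gate 42 genes (0.388%) and 0 members passed in edgeR, 4 members at an unadjusted p under 0.05. The stricter gate's strongly cycling cells numbered 12 in S and 23 in G2/M in the second run, against 180 and 231 in the wider gate. In the type 17 gate 5.86% of genes and 3 members were called, Mybl2 at 3.54 ± 0.81, Mxd3 at 3.52 ± 0.61 and Myb at 1.51 ± 0.28. Without the cells of the top 10% of Scrublet doublet scores, Mxd3 was at -0.42 (adjusted p = 0.98), Mybl2 at 2.31 (adjusted p = 0.61) and Myb at 1.36 (adjusted p = 0.068), so none of the 3 type 17 calls held. In thinned cells Myb did not pass in either gate, at 0.66 in the effector gate (adjusted p = 1.0) and 1.90 in the type 17 gate (adjusted p = 0.99).

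**Figure D2:**
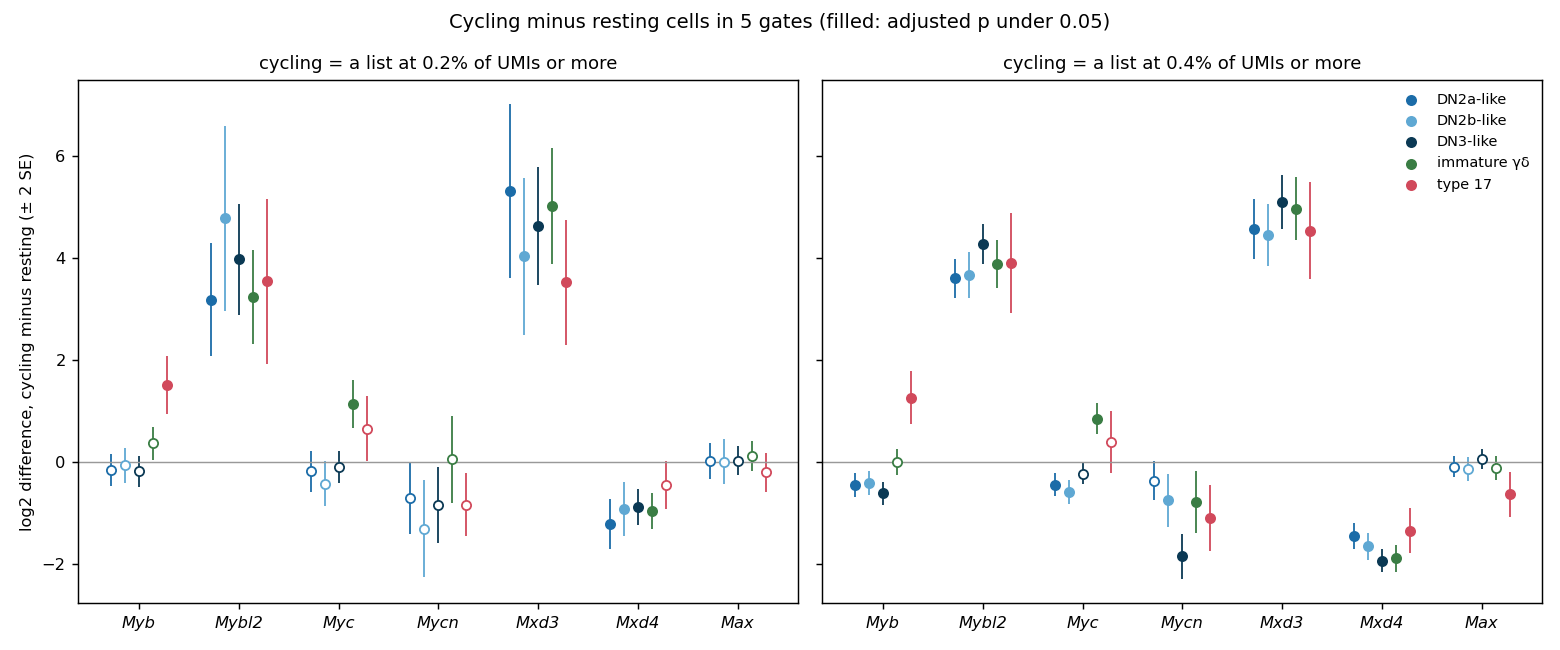
Log2 difference of each member between cycling and resting cells in 5 gates, from edgeR, with the cut of 0.2% (left) and of 0.4% (right), 2 SE either way as bars and filled points for an adjusted p under 0.05. On the left Mybl2 lies between 3.18 and 4.77 and Mxd3 between 3.52 and 5.31, where the type 17 value of Mxd3 turned to -0.42 without the top Scrublet scores, Mxd4 lies between -1.22 and -0.45, and Myc is filled in the immature γδ gate, at 1.13.

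From stage to stage within the Il2ra+ gates, no member passed the test. The DN3-like side of these steps included cells of the second run, whose sort took DN1 and DN2 cells. Between DN2a-like and DN2b-like resting cells 0.276% of genes were called and between DN2b-like and DN3-like resting cells 0.12%, and among cycling cells 1.0% and 4.2%. Of the members, 0 passed in each by edgeR, and 0, 0, 3 and 2 had an unadjusted p under 0.05. In cycling cells these were Mxd4 at 0.45 ± 0.15, Mycn at -0.64 ± 0.22 and Mxd3 at 0.42 ± 0.15 for DN2b-like minus DN2a-like (adjusted p = 0.24, 0.23 and 0.28). For DN3-like minus DN2b-like they were Mxd4 at 0.44 ± 0.14 and Myc at 0.30 ± 0.12 (adjusted p = 0.076 and 0.17). For resting Myb the differences were -0.27, with a 95% interval from -0.66 to 0.11, and -0.10, with an interval from -0.47 to 0.28. These intervals leave room for changes of a size that the sums of 20 to 149 resting cells could not detect.

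The ETP-like and DN4-like ends of the series were described and not tested. In the ETP-like cells of the second and the third run, Mycn stood at 75.4 CPM (41.2 to 126.6) and 22.1 CPM (8.90 to 45.6), on 14 and 7 UMIs, and in all DN3-like cycling cells at 17.5 and 9.05 CPM. A wider early progenitor gate, added after these counts were seen, held 76 and 32 cells with Mycn at 86.4 CPM (63.9 to 114.3) and 19.4 CPM (8.36 to 38.2). Mycn was thus higher in early progenitors than in cycling DN3-like cells in the second run, beyond counting error, while the intervals met in the third. Resting DN3-like cells of the second run, at 33.9 CPM (17.5 to 59.2), met the interval of the ETP-like gate but not that of the wider gate. The values of these progenitor gates cover resting and cycling cells together. Myb stood at 280.2 and 322.6 CPM in ETP-like cells. Of the 1137 DN4-like cells of the first run, 428 were strongly S and 671 strongly G2/M. Cells past the pre-TCR checkpoint are known to divide fast. Strongly S DN4-like cells held Myb at 114.0 CPM (103.3 to 125.4), against 196.8 CPM (178.6 to 216.3) in strongly S DN3-like cells of the same run, and Mycn at 1.37 CPM (0.444 to 3.19) against 5.49 CPM (2.84 to 9.59). Myc was lower in strongly S DN4-like cells, at 140.2 CPM (128.3 to 152.9) against 171.2 CPM (154.2 to 189.4), but stood at 165.6 CPM (156.5 to 175.2) in strongly G2/M DN4-like cells and at 143.5 CPM (131.8 to 156.0) in such DN3-like cells. In the third run, with 26 cycling DN4-like cells, Myc stood at 43.1 CPM (23.6 to 72.4) in these and at 79.3 CPM (74.0 to 84.9) in cycling DN3-like cells, and Myb at 215.7 CPM (168.2 to 272.5) and 497.2 CPM (483.8 to 511.0). The sort of the third run took no DN4 cells. Its DN4-like cells held Trdc at 524.2 CPM and Maf at 63.4 CPM, against 217.0 and 11.35 CPM in its DN3-like cells. Tcrg-C1 and Tcrg-C4 were lower in these DN4-like cells than in DN3-like cells. Cd28, Cd2 and Trbc1, set aside to check the DN4-like gate, were higher. Whether the DN4-like cells of the third run were DN4 cells was not tested. In the first run Mxd3 was at 104.1 CPM (96.9 to 111.7) and 92.6 CPM (83.2 to 102.7) in strongly G2/M DN4-like and DN3-like cells, whose intervals met.

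In the immature γδ, effector and type 17 gates, Myb and Myc were lower in resting cells than in the DN3-like gate. Resting Myb stood at 284.2, 316.4 and 519.7 CPM in DN3-like cells and at 163.5, 164.4 and 305.6 CPM in immature γδ cells of the 3 runs in order. In the effector gate it stood at 61.1 and 82.1 CPM and in the type 17 gate at 24.7 and 30.6 CPM in the second and the third run. In both these runs the order was DN3-like, immature γδ, effector and type 17, and no interval of neighbours in it met the next, while in the first run the neighbouring intervals met. The DN2a-like and DN2b-like levels, at 478.3 and 481.7 CPM in the second run, could not be told apart, and in the third run the intervals of neighbours in the order from DN2a-like (680.4 CPM, 596.6 to 772.8) to DN2b-like (602.3 CPM, 522.9 to 690.5) and DN3-like cells (519.7 CPM, 478.9 to 563.0) met, while those of DN2a-like and DN3-like cells did not. Resting Myc stood at 164.8, 146.9 and 97.2 CPM in DN3-like cells, against 72.7, 42.6 and 12.1 CPM in immature γδ cells and 26.01 and 17.2 CPM in type 17 cells. In the effector gate Myc was between these, at 86.6 and 34.7 CPM.

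**Figure D3:**
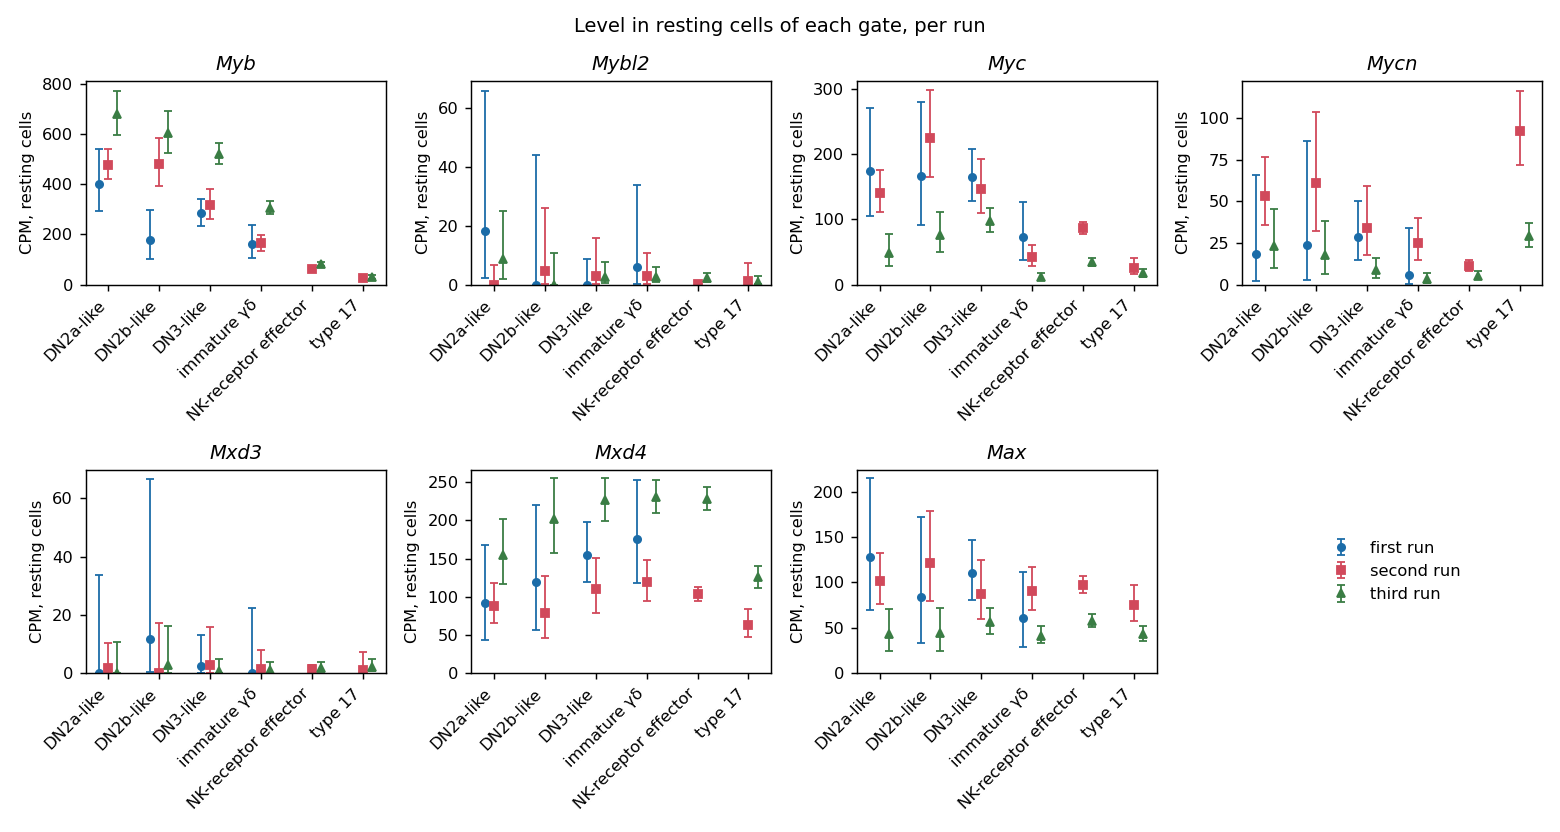
Levels of the members in resting cells of 6 gates in CPM, on axes from 0, with 1 colour per run and exact 95% Poisson intervals as bars. Myb lies between 284.2 and 519.7 CPM in DN3-like cells and at 24.7 and 30.6 CPM in type 17 cells, and Mycn is at 92.3 and 29.3 CPM in type 17 cells.

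Resting immature γδ cells against resting DN3-like cells called 22.3% of genes and 2 members. Myb differed by -0.85 ± 0.18 (adjusted p = 2.9e-04, edgeR) and Myc by -2.19 ± 0.25 (adjusted p = 3.4e-09), each lower in 3 of 3 runs. The second of these runs was sorted as DN1 and DN2 cells without TCRγδ+ cells. Whether its cells in these gates were γδ or DN3 cells was not tested. With no run block neither call passed, at -0.79 for Myb and -1.90 for Myc (adjusted p = 0.41 and 0.078, edgeR). Mycn differed by -0.999 ± 0.49 (adjusted p = 0.15). For the effector gate 37.9% of genes and 4 members were called, Myb at -2.33 ± 0.19, Myc at -0.75 ± 0.18, Mycn at -1.12 ± 0.42 and Max at 0.40 ± 0.15. With the stricter effector gate Myb was at -3.80 and Mycn at -2.65, and Max was no longer called (adjusted p = 0.059), nor was it under DESeq2 (adjusted p = 0.098). Without the first run neither Max nor Mycn was called (adjusted p = 0.21 and 0.085). For the type 17 gate, a contrast added after the gates were filled, 35.5% of genes and 4 members were called, with type 17 sums from the second and the third run alone. Myb was at -3.85 ± 0.24 and Myc at -2.20 ± 0.25, and Mxd4 at -0.70 ± 0.21.

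Mycn was the called member that was higher in resting type 17 than in DN3-like cells. It was counted 71 and 70 times there, at 92.3 CPM (72.1 to 116.5) in the second run and 29.3 CPM (22.9 to 37.0) in the third, against 33.9 CPM (17.5 to 59.2) and 8.68 CPM (4.16 to 16.0) in resting DN3-like cells. The type 17 level was the higher in both runs, and the intervals did not meet. The difference was 1.59 ± 0.35 on the log2 scale (adjusted p = 3.4e-04, edgeR), and Myc in the same cells went the other way. Next in order were DN2b-like cells in the second run, at 60.8 CPM (32.4 to 104.0), and DN2a-like cells in the third, at 23.0 CPM (9.92 to 45.3), whose intervals met those of type 17 cells. The wider early progenitor gate, which was not fitted, was at 128.7 CPM (78.6 to 198.8) in resting cells of the second run. In cells thinned to 2000 UMIs the difference was 1.27 (adjusted p = 0.17).

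**Figure D4:**
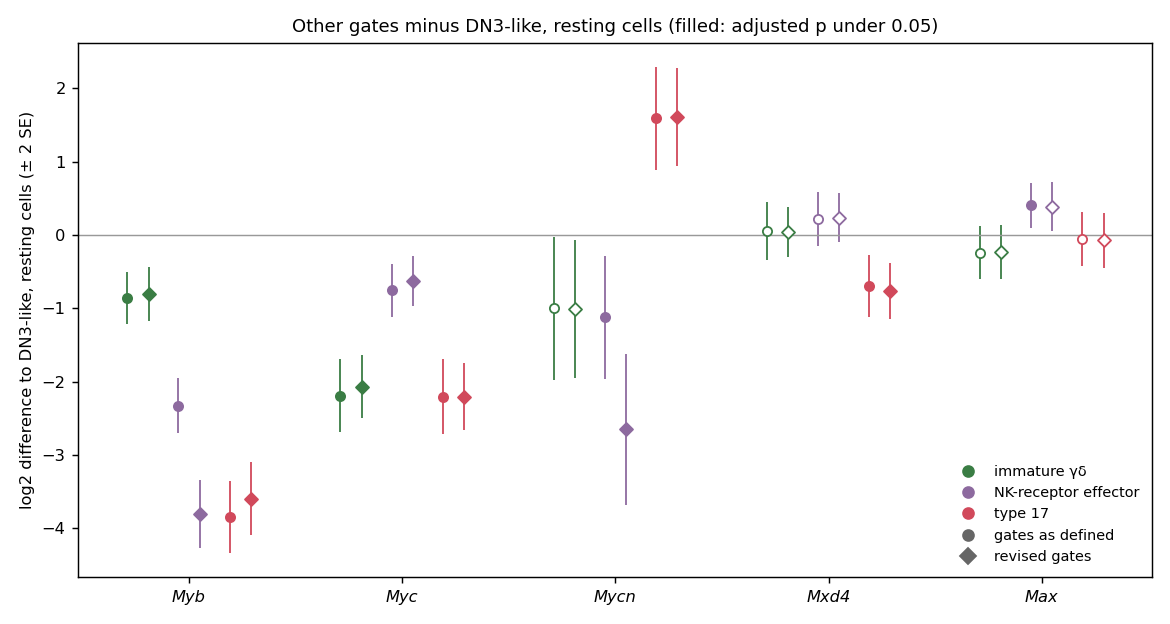
Log2 difference of each member in resting immature γδ, effector and type 17 cells from resting DN3-like cells, from edgeR, for the gates as defined (circles) and revised (diamonds), with 2 SE either way as bars and filled points for an adjusted p under 0.05. Mybl2 and Mxd3 are left out for their few resting UMIs. With the gates as defined Myb is below 0 in all 3 gates, down to -3.85 in type 17 cells, and Mycn is at 1.59 in type 17 cells and at -1.12 in the effector gate.

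Of 9 other Myb, Myc, Mxd and Mlx family genes 6 passed the filter on low counts, and 0 were called between cycling and resting Il2ra+ cells by edgeR (median 0.02, against 24.1% called and a median of 0.06 for all genes), and 4 had larger counts than the rest: Mga (0.04), Mlx (0.12), Mxi1 (0.35) and Mxd1 (-0.23). In resting effector cells against DN3-like cells 2 were higher and 2 lower, where 37.9% of all genes were called. Mxd1, a partner of Max, and Mlx, a relative of Max, were at 1.30 and 0.72, and Mxi1 and Mga, which also pair with Max, at -0.92 and -0.45 (median 0.27, all genes 0.09). In type 17 cells Mlx was at 0.70, Mxi1 at -1.76 and Mga at -0.53, all called, as were 35.5% of all genes. Of 5 MuvB genes, which code for the complex that Mybl2 joins, 2 were higher in cycling Il2ra+ cells, Rbbp4 by 0.79 and Lin54 by 1.64 (median of the 5, 0.55), where 24.1% of all genes were called. Lin9, at 0.55, did not pass. Of 5 partners of MuvB in the DREAM and late complexes 3 were higher, Rbl1 by 2.21, Tfdp1 by 1.16 and Foxm1 by 3.80, while E2f4, at 0.19, and Rbl2, at -0.31, did not pass (median of the 5, 1.16). Foxm1, named after its value was seen, which activates G2/M genes with Mybl2, was also higher in G2/M than in S cells, by 2.11.

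Textbook MYC targets, 25 genes for ribosome making, amino acids and polyamines, were higher in cycling cells, where Myc itself did not pass. Of the 25, 23 were higher and 0 lower in cycling Il2ra+ cells, with a median log2 difference of 0.64, against 24.1% called and a median of 0.06 for all genes. Npm1, a nucleolar chaperone, was at 0.41, Eif5a and Eif4a1, translation factors, at 0.80 and 0.19, and Ncl, nucleolin, at 0.76. In G2/M against S cells 20 were lower and 0 higher (median -0.40, all genes 20% called, median 0.03). In immature γδ cells, 22 were higher in cycling cells (median 1.17), where 26.2% of all genes were called, with Eif5a at 1.28, Ncl at 1.19, Npm1 at 0.72 and Eif4a1 at 0.51. Whether this cycling difference differed between immature γδ and DN3-like cells was tested, and 0 of the 25 passed (median 0.27, all genes -0.01), against 249 genes in all. Resting γδ cells were lower than resting DN3-like cells in 17 of the 25 and higher in 1 (median -0.59, all genes 22.3% called, median 0.01), the direction in which Myc also differed. The gene that was higher, named after its value was seen, was Tfrc, the transferrin receptor, at 1.17.

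In resting type 17 cells, where Myc was lower and Mycn higher than in DN3-like cells, the same list was called at about the share of all genes. Of the 25, 4 were higher and 5 lower, where 35.5% of all genes were called, with a median of -0.03 against 0.04 for all genes. Named after their values were seen, the 4 were Odc1, the first enzyme of polyamine synthesis, at 1.36, Bop1, a factor of ribosome making, at 1.16, Ddx21, a nucleolar helicase, at 0.85 and Shmt2, an enzyme of serine metabolism, at 0.82. The 5 were Tfrc at -1.35, Cdk4 at -0.53, Eif4a1 at -0.49, Rrs1 at -0.48 and Npm1 at -0.38. In the effector gate 4 were higher and 2 lower (median 0.17, all genes 37.9% called, median 0.09), a smaller share than that of all genes.

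**Figure D5:**
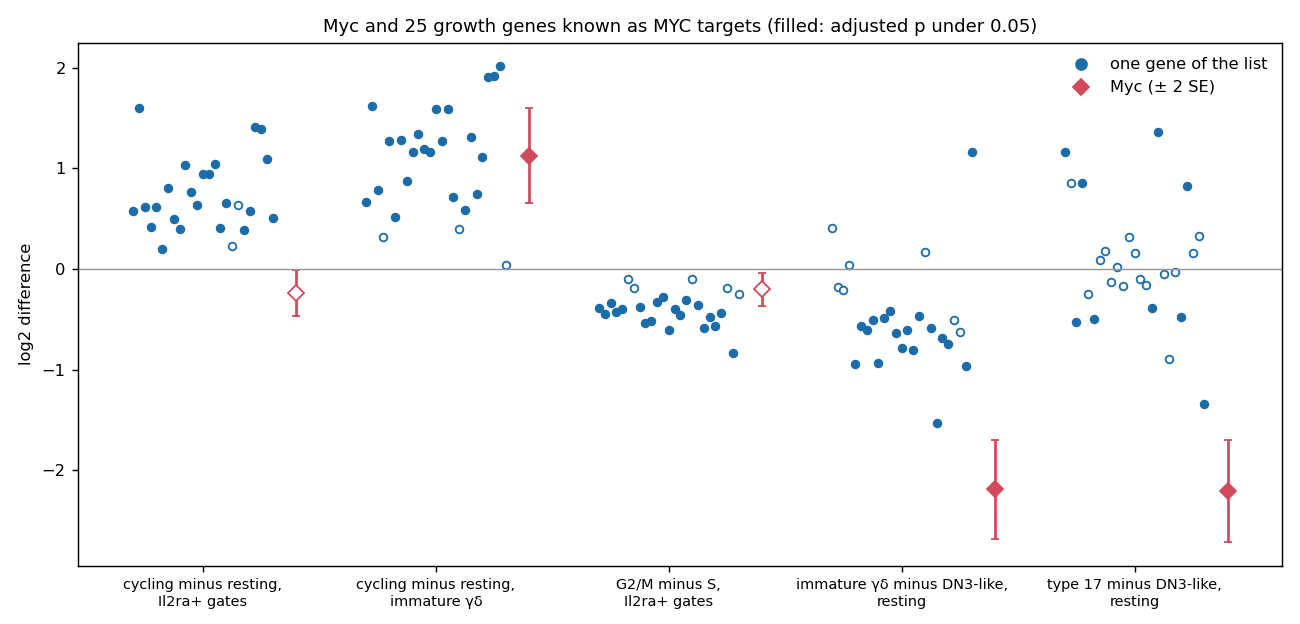
Log2 differences of the 25 MYC target genes (circles) and of Myc (diamonds, with 2 SE either way) in 5 comparisons, from edgeR, filled for an adjusted p under 0.05. The list has a median of 0.64 in cycling against resting Il2ra+ cells, 1.17 in cycling against resting immature γδ cells, -0.40 in G2/M against S cells, -0.59 in resting immature γδ against DN3-like cells and -0.03 in resting type 17 against DN3-like cells.

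The genes whose levels ran most like each member were taken over 47 sums of run, gate and status, by Pearson's r of log2(CPM + 1) centred on the run, among 5658 genes with at least 20 CPM on average. These points share libraries and depth, and r is given as a description. Myb ran with Idh2 (0.976), a mitochondrial enzyme, Tspan13 (0.968) and Cd24a (0.965), the marker of immature thymocytes. Mybl2 ran with replication genes, Rfc4 (0.937), Orc6 (0.925) and Dut (0.923), and Mxd3 with the long noncoding RNA Lockd (0.955) and the mitotic regulators Ccna2 (0.949) and Plk1 (0.939). Myc ran with Ly6d (0.908), Myl10 (0.884) and Uck2 (0.87), and Mxd4 with Malat1 (0.914), Nop53 (0.879) and Pnrc1 (0.852). With a pseudocount of 10 in place of 1, all 3 genes were kept for Mxd4 and 2 of 3 for each other member. For Mycn the values were lower, with Tmem176b (0.811), mt-Nd4 (0.762) and Gpx1 (0.736), and for Max they were lowest, with Lamb3 (0.691), Ppfia1 (0.661) and Brpf1 (0.656).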

How the data were processed

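The authors deposited raw UMI counts per gene and cell for 3 libraries of the 10x 3' assay, aligned to mm10 and counted with Cell Ranger (4.0.0 in the header of the third run; for the others the version per run is not given in the sources used here). The submitters' processing notes also name R 3.6.3 and Seurat 2.3. The deposited counts summed to 39947415, 52797915 and 98533329 UMIs, with a median of 5989, 4844 and 8507 per kept cell.

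Cells were gated and scored on raw counts. Counts were summed per run, gate and status over at least 20 cells (33 sums, or 47 with S and G2/M apart). They were fitted with edgeR 4.0.16 in R 4.3.3 (quasi-likelihood F test, TMM factors, filterByExpr, run as an additive block), with adjusted p under 0.05 as the threshold over all genes tested. Genes of the gates and cycle lists were not tested. The scripts were tested on simulated data. Matrices were read with Python 3.11.15, scipy 1.17.1, numpy 2.4.6 and pandas 2.3.3. Scrublet (scanpy 1.11.5) scored doublets, which were kept except in one alternative. Alternatives were DESeq2 1.42.0, other size factors, no low-count filter, no run block, other limits on cells, thinned cells, other cuts, and each run left out. A core G2/M list, revised gates, a wider progenitor gate, bins of cycling and the contrasts with type 17 cells and of cycling differences outside the Il2ra+ gates were added after the data were seen.

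The members and lists were chosen with earlier results of these data known. Named genes were the members, at most 4 genes of a list by largest mean count, and the 3 genes most alike by Pearson's r. Gene positions came from GENCODE vM21 on GRCm38. Intervals cover counting error only, and levels of different genes were not compared. The level of 1 marker of the type 17 check is not reported here.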

Additional observations from a re-analysis of the deposited data

Results flagged for a closer look

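In 3 cases the difference between cycling and resting cells differed between gates by the test of the difference itself. For Myc, immature γδ cells exceeded DN3-like cells by 1.23 on the log2 scale (edgeR, adjusted p = 0.0097), and the value was 0.77 without the third run (adjusted p = 0.40) and -0.001 in thinned cells (adjusted p = 1.0). With no run block none of the 3 passed, at 0.95 for Myc, 1.55 for Myb and 1.65 for Mycn (adjusted p = 1.0, 0.78 and 1.0). For Myb, the effector gate exceeded DN3-like cells by 1.84 (adjusted p = 5.3e-07), and by 0.89 with the stricter effector gate (adjusted p = 0.14) and 0.77 in thinned cells (adjusted p = 0.87). For Mycn, the effector gate exceeded DN3-like cells by 1.52 (adjusted p = 0.036), by 1.08 with the stricter gate (adjusted p = 0.52), by 1.10 without the first run (adjusted p = 0.23) and by 0.46 in thinned cells (adjusted p = 1.0). The effector contrast called 8.74% of genes with the gates as defined and 1.31% with the stricter gate, and the part of cells with Il2ra in the effector values was not tested beyond this. The part of cells with Il2ra in the γδ values was not tested, as no stricter γδ gate was made.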

How the results depend on the processing

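Over 1764 values under the alternatives, 1618 kept their side of the threshold, among them 136 that were called in neither fit and changed sign, 71 passed it only in the alternative, 71 lost it and 4 reversed. The reversed values were Mycn in cycling γδ cells with the cut of 0.4% (-0.79, from 0.05), Mxd3 in cycling type 17 cells without the top 10% of Scrublet scores (-0.42, from 3.52), the Myc difference between γδ and DN3-like cycling effects in thinned cells (-0.001, from 1.23) and Mxd4 in G2/M against S cells with the core list (-0.39, from 0.51), and the cause was not tested. Of the 7 members, 4 were called between cycling and resting Il2ra+ cells, and 3 to 6 with a run left out. In thinned cells 0 of those tested were called, where fewer genes passed the filter and DN2b-like cells could not be fitted. Mybl2 and Mxd3 were not among the genes tested between thinned cycling and resting cells. Thinning therefore does not bear on their cycling calls. Summed over 6 gates there were 21 calls, 32 with the cut of 0.4%, 3 with the cut of 0.1% (where 5 gates could not be fitted), 11 with no run block, 0 in thinned cells and 12 to 24 with a run left out, where the effector and type 17 gates could not be fitted without the second run or without the third run. Stage steps in resting cells gave 0 calls, and 1 with the cut of 0.4%. Steps in cycling cells gave 0, against 4 with no low-count filter, 3 with no upper gene limit, 2 with the cut of 0.4%, 1 with the core list, 1 with revised gates, 1 without the top Scrublet scores and 0 to 1 with a run left out. G2/M against S gave 3, against 5 with the core list and 1 with no run block. The change of the cycling difference from DN2a-like to DN3-like cells gave 0, and 1 with the cut of 0.4%. Resting γδ and effector cells against DN3-like cells gave 6, against 1 with no run block and 2 to 4 with a run left out, where the effector contrast could not be fitted without the second run or without the third run.

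Genes called between cycling and resting cells numbered 2615, but 6743 with the cut of 0.4%, 6046 with the core list, 1701 with sums of at least 50 cells (DN3-like cells alone), 1639 without the second run, 1118 with no run block and 117 in thinned cells. Counting error limits Mybl2, Mxd3 and Mycn in resting cells. Leaving ribosomal protein and mitochondrial genes out of the total multiplied levels by 1.445 to 1.624. Libraries of different runs could not be paired with each other, because each sort was made once. Cycling and resting sums of the same run were compared with the run as a block.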
